A study of Homo sapiens with 183 samples.

Results

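Tuft cell genes are the subject here, a set of 10 genes that mark tuft cells, rare chemosensory cells of mucosal epithelia. The members were found by symbol among 19875 gene names, in 8 tables that cover 183 RNA-seq libraries of 9 human cancer cell lines, and all 10 were listed. They comprise 4 transcription factor genes (POU2F3, ASCL2, GFI1B and SOX9) and 6 genes for an ion channel, a cytoskeletal protein, enzymes and a cytokine receptor (TRPM5, AVIL, CHAT, PTGS1, ALOX5 and IL17RB). The values are TPM, a share of all transcripts that is scaled to transcript length and to the library total so that levels of different genes in a library can be set side by side.

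The study asked how the transcription factor KLF5 and the RUVBL1/2 ATPases maintain lineage identity in pancreatic ductal adenocarcinoma (PDAC), and whether an allosteric RUVBL1/2 inhibitor, CB-6644, acts on identity programs of other cancers. H1048 (a small cell lung cancer line of the tuft cell-like P subtype), T84 (colorectal cancer), A375 (melanoma) and RH30 (alveolar rhabdomyosarcoma) were all parental cells given DMSO or CB-6644 for 24 h, with 4 libraries in each group. AsPC-1 (classical PDAC) and T3M-4 (basal-like PDAC) carried an empty vector (EV), RUVBL1 A62T or RUVBL2 dF109, both variants that confer resistance to CB-6644, and each construct had 3 CB-6644 libraries and 1 DMSO library. All 6 of these cell pools had been transduced with lentivirus and selected with G418. In the knockout experiments, Cas9-expressing AsPC-1, SUIT-2 (classical), T3M-4, BxPC-3 (basal-like) and CFPAC-1 cells received sgRNAs against KLF5, RUVBL1, RUVBL2, CHD4, SERPINB5 or the lethality controls CDK1 and Rpa3, and were compared on day 5 with cells of the same line and experiment that received sgRosa, which cuts the ROSA26 locus. The sgRosa groups held 2 or 4 libraries and the knockout groups held 2 to 6. The study's captions describe knockout libraries as biological replicates made with a pair of sgRNAs for KLF5, RUVBL1, RUVBL2, SERPINB5 and ROSA26, so such a group mixes guides, and the labels do not say which library had which guide. The labels do not say whether libraries of a group came from separate cultures, so p-values measure the spread between these libraries, which for the CB-6644 groups may be technical.

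Tuft cells sense luminal signals through taste-type receptors, and the calcium-activated channel TRPM5 carries the resulting depolarisation. They release acetylcholine, made by CHAT, and lipid mediators made by the cyclooxygenase PTGS1 and the 5-lipoxygenase ALOX5, and they respond to interleukin-25 through IL17RB. POU2F3, an octamer-binding POU factor, is required for the tuft cell lineage and defines a subtype of small cell lung cancer that lacks the neuroendocrine program. GFI1B is a zinc-finger repressor found in tuft cells, AVIL encodes the actin-binding protein advillin of their microvilli, ASCL2 is a basic helix-loop-helix factor of intestinal stem cells, and SOX9 is an epithelial progenitor factor expressed well beyond tuft cells.

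On hg38, the transcription factor genes lie at chr11:120236640-120319945 (POU2F3, plus strand), chr11:2268498-2270588 (ASCL2, minus strand), chr9:132944000-132991687 (GFI1B, plus strand) and chr17:72121020-72126416 (SOX9, plus strand). The others lie at chr11:2404515-2444514 (TRPM5, minus strand), chr12:57797376-57818734 (AVIL, minus strand), chr10:49609095-49667942 (CHAT, plus strand), chr3:53846568-53865794 (IL17RB, plus strand), chr9:122370530-122395703 (PTGS1, plus strand) and chr10:45374176-45446119 (ALOX5, plus strand). These are whole gene bodies in GENCODE v44, and the TPM of a gene sums its transcripts.

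A pair of promoters is shown because a motif of a factor central to the study or to tuft cells falls in each. Both come from RefSeq on GRCh38.p14 and run from 250 bases before to 50 after the annotated start, written 5′ to 3′ on the gene's strand. IL17RB, PTGS1, GFI1B, CHAT and AVIL were matched, with 9 windows in all. POU2F3, ASCL2, SOX9, TRPM5 and ALOX5 were not matched. The capitals in AVIL (chr12:57818685-57818984, minus strand) mark ATGCAAA, the octamer without its last base. The capitals in PTGS1 (chr9:122375052-122375351, plus strand) mark the reverse complement of GGGTGGG, which is the core of the boxes that KLF factors bind.
AVIL: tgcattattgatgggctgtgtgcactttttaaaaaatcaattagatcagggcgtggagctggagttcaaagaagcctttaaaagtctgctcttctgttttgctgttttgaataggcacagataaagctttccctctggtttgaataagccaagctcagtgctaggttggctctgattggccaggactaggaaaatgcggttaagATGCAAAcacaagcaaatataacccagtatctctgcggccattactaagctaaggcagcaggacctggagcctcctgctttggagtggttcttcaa
PTGS1: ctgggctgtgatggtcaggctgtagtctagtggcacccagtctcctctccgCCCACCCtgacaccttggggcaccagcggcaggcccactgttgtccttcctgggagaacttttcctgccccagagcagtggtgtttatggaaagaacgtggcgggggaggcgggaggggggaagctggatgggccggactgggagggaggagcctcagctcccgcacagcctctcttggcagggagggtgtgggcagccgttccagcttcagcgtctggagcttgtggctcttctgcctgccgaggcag
On either strand, ATGCAAA was in 4.46% of all 35116 promoter windows and in 1 of the 9 member windows, the one of AVIL, and the full octamer ATGCAAAT, which contains it, was in 1.77% of all windows and 0 of the 9. GGGTGGG was in 19.6% of all windows and 3 of the 9, and the GC box GGGCGGG was in 33.1% and 3 of the 9. These matches describe letters in a window and not binding.

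At baseline, H1048 had the highest mean of 6 members among those that reached 1 TPM in it, and POU2F3 set it furthest apart. Control means were taken over DMSO or sgRosa libraries, with 4 libraries for H1048, T84, A375, RH30, SUIT-2 and CFPAC-1, 17 for AsPC-1, 9 for T3M-4 and 6 for BxPC-3. POU2F3 averaged 476 TPM in H1048, against 1.91 in T3M-4, 1.44 in SUIT-2, 1.38 in BxPC-3 and 1.32 in T84. The H1048 libraries did not overlap with those of any other line and their mean was 249-fold that of T3M-4, whereas T3M-4, SUIT-2, BxPC-3 and T84 overlapped with their neighbours in that order. GFI1B averaged 86.8 TPM in H1048 and under 1 TPM in each of the other 8 lines, of which T3M-4 had the highest mean, 0.775.

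AVIL, SOX9 and ALOX5 were also highest in H1048, but other lines expressed them. AVIL averaged 140 TPM in H1048 and 31.0 in RH30, a 4.51-fold difference, and 2.42 in BxPC-3. SOX9 averaged 213 TPM in H1048, 90.3 in CFPAC-1, 46.4 in T84, 28.3 in SUIT-2 and 25.6 in AsPC-1. The first 4 of these lines did not overlap with each other in order, while neighbours from SUIT-2 down through AsPC-1, BxPC-3, T3M-4 and RH30 did. ALOX5 averaged 213 TPM in H1048, 44.7 in AsPC-1, 31.2 in SUIT-2, 9.81 in T3M-4 and 5.91 in CFPAC-1. H1048 stood 4.76-fold above AsPC-1, and every later neighbour in the order overlapped down to T84.

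IL17RB was shared between H1048 and T84, and the other members did not follow H1048. IL17RB averaged 107 TPM in H1048 and 81.2 in T84, 1.32-fold apart with no overlap, and 12.4 in CFPAC-1. ASCL2 was highest in T84, at 36.1 TPM, and averaged 8.002 TPM in H1048 and 4.12 in T3M-4. PTGS1 was highest in basal-like BxPC-3, at 31.3 TPM, followed by SUIT-2 at 11.9 and T3M-4 at 6.39, and averaged 0.591 TPM in H1048. TRPM5 averaged 0.0770 TPM and CHAT 0.229 TPM in H1048, and CHAT was listed at 0 in the control libraries of the other lines. Thus 7 of the 10 members reached 1 TPM in H1048, and TRPM5, CHAT and PTGS1 did not.

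**Figure D1:**
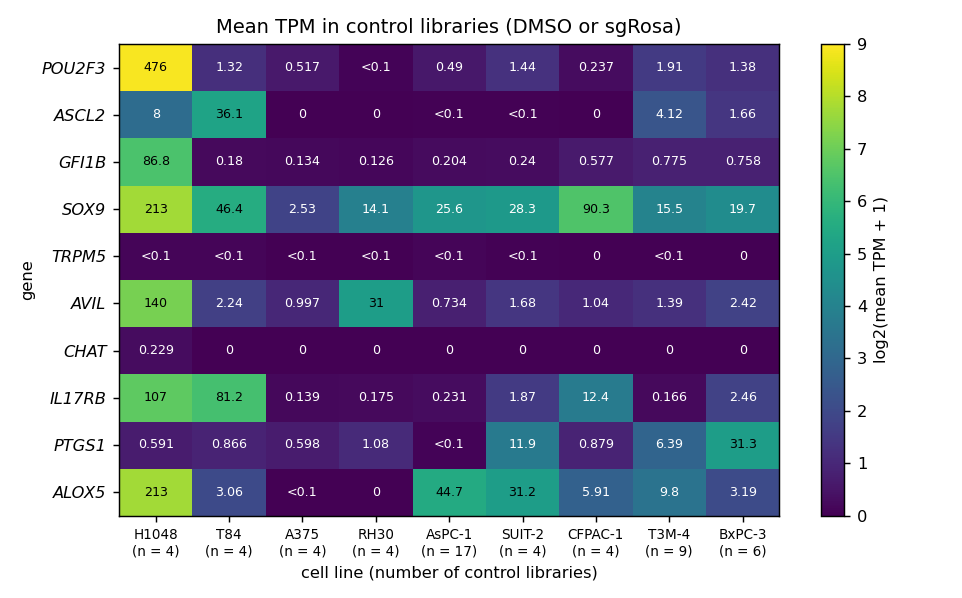
Level of each tuft cell gene in the control libraries (DMSO or sgRosa) of 9 cell lines, on a log scale. POU2F3 and GFI1B are high in H1048 alone (means of 476 and 86.8 TPM), whereas ASCL2 peaks in T84 and PTGS1 in BxPC-3.

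The differences between the 4 DMSO-treated lines were tested in 1 fit with limma. H1048 was higher than T84 for 7 members, than A375 for 9 and than RH30 for 9, where 52.9%, 49% and 48.8% of all genes tested were higher. These counts take in TRPM5 and CHAT, which were under 1 TPM in every line, and the TRPM5 calls against A375 and RH30 were lost without H1048 DMSO replicate 2 (Benjamini-Hochberg adjusted p = 0.264 and 0.276). Against T84, ASCL2 was lower by 2.05 on the log2(TPM + 1) scale (log2 difference -2.05, adjusted p = 4.37e-21). PTGS1 was lower as well (-0.23, adjusted p = 0.00368). IL17RB was higher by 0.40 (adjusted p = 0.00167) as deposited, but its sign turned to -0.14 (adjusted p = 0.287) when libraries were rescaled by median-of-ratios factors.

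The label of H1048 was checked against neuroendocrine genes. NEUROD1, a neuroendocrine transcription factor, and CHGA, a protein of secretory granules, averaged 0 and 0.0326 TPM in its DMSO libraries, and NCAM1, a cell adhesion molecule, averaged 61.2 TPM. Across the 9 line means, the genes most like POU2F3 by Pearson correlation were COLCA2 (POU2AF3, a coactivator of POU2F3, r = 0.995), ART5, LOC105374103, KISS1R, NPR1, FEZF1, COL26A1 and ERMN, the last with r = 0.991. Of the members, GFI1B had r = 0.986, SOX9 0.643 and ASCL2 0.455. These r values describe 9 points of which H1048 is the single high one, so they rank genes by how far H1048 stands alone.

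In H1048, the 4 transcription factor genes and AVIL fell under CB-6644, while the direction of ALOX5 and IL17RB depended on how libraries were scaled. POU2F3 measured 483, 501, 452 and 469 TPM in DMSO replicates 1 to 4 and 298, 307, 312 and 293 TPM in CB-6644 replicates 1 to 4. The groups were far from overlapping, and the mean fell by 36.5% to 303 TPM (log2 fold change -0.65, SE 0.03, adjusted p = 7.99e-09). In bulk RNA, fewer cells that express a gene and less RNA of it per cell cannot be told apart.

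Of the other factors, ASCL2 fell by 40.1%, SOX9 fell by 39.0% and GFI1B fell by 33.6%. SOX9 measured 218, 214, 206 and 214 TPM in DMSO and 131, 124, 135 and 129 TPM in CB-6644 (-0.71, SE 0.03, adjusted p = 2.04e-09). GFI1B measured 89.5, 89.5, 80.7 and 87.4 TPM in DMSO and 57.0, 52.5, 64.8 and 56.1 TPM in CB-6644 (-0.58, SE 0.06, adjusted p = 1.54e-06). Neither pair of groups overlapped. ASCL2 was the least abundant of the 4 factors, at 8.53, 6.71, 9.29 and 7.48 TPM in DMSO and 5.10, 4.29, 5.57 and 4.22 TPM in CB-6644 (-0.63, SE 0.10, adjusted p = 0.000121). Its lowest DMSO library still exceeded its highest CB-6644 library. AVIL measured 142, 142, 136 and 140 TPM in DMSO and 97.5, 97.9, 95.0 and 95.3 TPM in CB-6644, and fell by 31.1% (-0.53, SE 0.03, adjusted p = 7.08e-09).

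The lipoxygenase and the cytokine receptor changed less. ALOX5 measured 214, 218, 210 and 210 TPM in DMSO and 234, 224, 234 and 229 TPM in CB-6644, and it rose by 0.11 (SE 0.03, adjusted p = 0.00213). IL17RB measured 108, 105, 108 and 110 TPM in DMSO and 109, 113, 106 and 115 TPM in CB-6644, groups that overlapped (0.04, adjusted p = 0.235). Both signs depended on scaling, since median-of-ratios factors turned ALOX5 to -0.10 (adjusted p = 0.00549) and IL17RB to -0.17 (adjusted p = 0.000708). TRPM5, CHAT and PTGS1 were under the filter of a mean of 1 TPM and were not tested.

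Of the 7 tested members, 5 fell, 1 rose and 1 did not pass the threshold, where 77.9% of all 13715 genes tested were past it, 53.9% higher and 24% lower. Groups did not overlap for 71.3% of all genes. The median change of the 7 was -0.58, beside 0.18 for all genes tested. Rescaling moved the median of all genes from 0.18 to -0.02 and turned 7391 higher and 3294 lower calls into 4818 higher and 5471 lower. The falls of POU2F3, SOX9, GFI1B, ASCL2 and AVIL stayed past the threshold under each of the 14 alternatives tried.

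**Figure D2:**
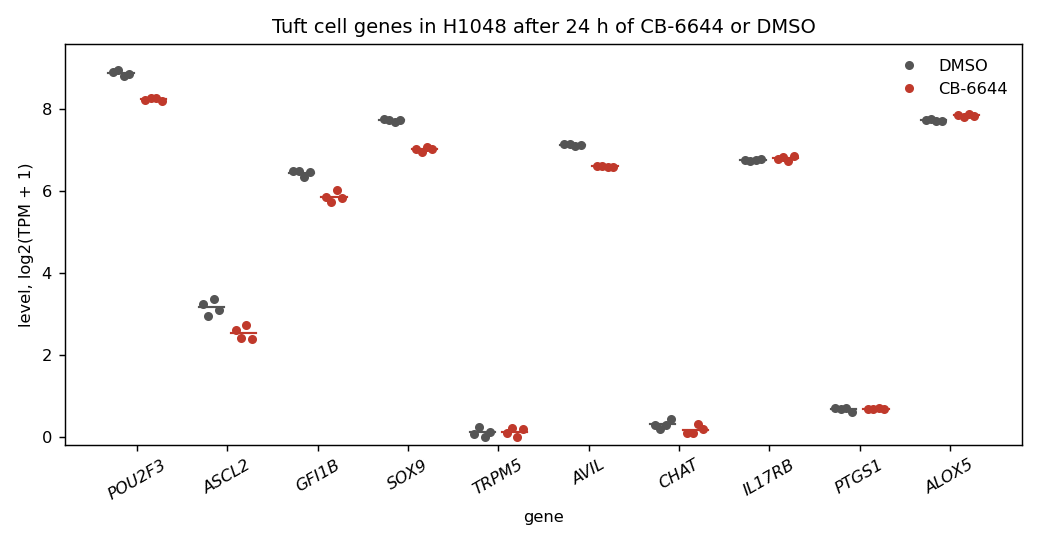
Level of the tuft cell genes in each H1048 library under DMSO and CB-6644, on a log scale, with a bar at the mean of 4 libraries. POU2F3, SOX9, GFI1B, ASCL2 and AVIL are lower in all 4 CB-6644 libraries, IL17RB overlaps, and ALOX5 lies slightly higher.

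Other genes of the tuft cell program in H1048 were read from a list of 38, chosen for their known place in tuft cells. The list was drawn up with earlier results of these data known, so its counts describe and are not independent support. Of 31 tested, 19 fell, 5 rose and 7 did not pass the threshold, with a median of -0.35 beside 0.18 for all genes. Of all genes tested, 24% fell and 53.9% rose. PLA2G4A, the phospholipase that frees arachidonic acid for PTGS1 and ALOX5, fell by 1.48 on the log2 scale to a range of 38.1 to 41.1 TPM, from 108 to 118 TPM in DMSO. RGS13, a regulator of G-protein signalling, ranged from 200 to 240 TPM in DMSO and from 80.9 to 87.9 TPM in CB-6644 (-1.38). GNAT3, the taste G-protein gustducin, fell by 1.08, and the homeobox genes HMX2 and HMX3 fell by 1.16 and 0.92. The coactivators of POU2F3 on this list also fell. C11orf53 (POU2AF2) ranged from 164 to 177 TPM in DMSO and from 92.0 to 101 TPM in CB-6644 (-0.80), and COLCA2 (POU2AF3) from 556 to 587 TPM and from 473 to 487 TPM. Among the genes that rose were SH2D6 (0.99), the interleukin-4 receptor gene IL4R (0.48) and the calcium release channel gene ITPR3 (0.22). The ITPR3 value was close to the median of 0.18 for all genes.

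A longer list of duodenal tuft cell genes that the study used gave a different balance. Of 79 names, 76 had values and 63 were tested. Of the 63, 30 fell, 23 rose and 10 did not pass the threshold, with a median of -0.02 beside 0.18 for all genes. Among all genes tested, 77.9% passed the threshold, with 24% lower and 53.9% higher. SOX4, a progenitor factor, and CD24, a surface glycoprotein, were among those that fell, and FURIN, a proprotein convertase, and GSN, an actin-severing protein, among those that rose. In the POU2 family, POU2AF1 rose by 0.75 (adjusted p = 3.51e-05) and POU2F1 by 0.16 (adjusted p = 0.0189), while POU2F2 was under the filter. The POU2F1 value was below the median of 0.18 for all genes, so no rise of it beyond other genes is read. Of 8 lung neuroendocrine genes, 4 were tested and 2 fell, NCAM1 among them. The summed TPM of 6 leukocyte markers ranged from 8.63 to 9.57 in DMSO and from 14.2 to 22.8 in CB-6644, and that of 6 colon epithelium markers from 7.26 to 8.48 and from 6.71 to 7.998. Their part in the changes of the tuft cell genes was not tested.

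In T84, A375 and RH30, where 71.4%, 81.1% and 77.7% of all genes passed the threshold, 13 member changes were tested. In A375, all 4 members tested were under 1 TPM in one of the groups and passed the filter through the other, so their calls are not counted in support of a direction. In T84, ASCL2 measured 39.2, 33.2, 35.5 and 36.6 TPM in DMSO and 17.4, 19.9, 18.7 and 18.6 TPM in CB-6644 (-0.92, adjusted p = 4.46e-09). AVIL rose from 2.59, 2.15, 1.91 and 2.31 TPM to 8.12, 6.72, 7.72 and 7.29 TPM (1.39, adjusted p = 3.15e-09). IL17RB fell from a mean of 81.2 to 64.3 TPM (-0.33, adjusted p = 2.78e-05). None of these 3 overlapped. ALOX5 rose by 0.30 and SOX9 fell by 0.15 in T84, but the ALOX5 call was lost under rescaling (adjusted p = 0.148) and without DMSO replicate 3 (adjusted p = 0.0611). The SOX9 call was lost when any 1 of 5 libraries was left out, with adjusted p up to 0.089 without DMSO replicate 2.

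SOX9 was lower under CB-6644 in RH30 as well, while its A375 values are not counted in support of a direction. In A375 it passed the filter through the DMSO libraries alone and measured 2.53, 2.43, 2.42 and 2.75 TPM in DMSO and 0.893, 1.05, 1.22 and 0.836 TPM in CB-6644 (-0.82, adjusted p = 3.21e-06). In RH30 it measured 13.8, 14.9, 13.9 and 13.6 TPM in DMSO and 7.497, 7.19, 7.11 and 7.32 TPM in CB-6644 (-0.86, adjusted p = 7.15e-09). AVIL fell in RH30 from a mean of 31.0 to 22.1 TPM (-0.47, adjusted p = 4.85e-06), with no overlap. PTGS1 rose in RH30 from a mean of 1.08 to 2.23 TPM (0.64, adjusted p = 4.98e-05). In A375, POU2F3, PTGS1 and AVIL passed the filter only through the CB-6644 libraries, with means of 1.598, 2.08 and 1.91 TPM there against 0.517, 0.598 and 0.997 TPM in DMSO (0.78, 0.94 and 0.56).

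The size of the response was then compared between lines by an interaction term, for which 50.2%, 56.9% and 54% of genes passed the threshold against T84, A375 and RH30. POU2F3 fell by 0.48 more in H1048 than in T84 (difference -0.48, SE 0.11, adjusted p = 0.000578), where its own change of -0.18 did not pass the threshold. With a pseudocount of 0.1 TPM the difference was -0.34 and no longer past the threshold (adjusted p = 0.267), and POU2F3 averaged only 1.32 TPM in T84 under DMSO. SOX9 differed by -0.56 from T84 (SE 0.07, adjusted p = 1.35e-07), but by 0.11 from A375 (adjusted p = 0.173) and 0.15 from RH30 (adjusted p = 0.0747). AVIL differed by -1.92 from T84 (adjusted p = 1.21e-13) and by -0.06 from RH30 (adjusted p = 0.696). ASCL2 fell less in H1048 than in T84, by 0.28 (SE 0.10, adjusted p = 0.0206), but that call was lost with a pseudocount of 0.1 TPM (adjusted p = 0.366), without H1048 CB-6644 replicate 3 (adjusted p = 0.0642) and without H1048 DMSO replicate 2 (adjusted p = 0.0675). Differences for GFI1B rest on lines in which it stayed under 1 TPM.

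**Figure D3:**
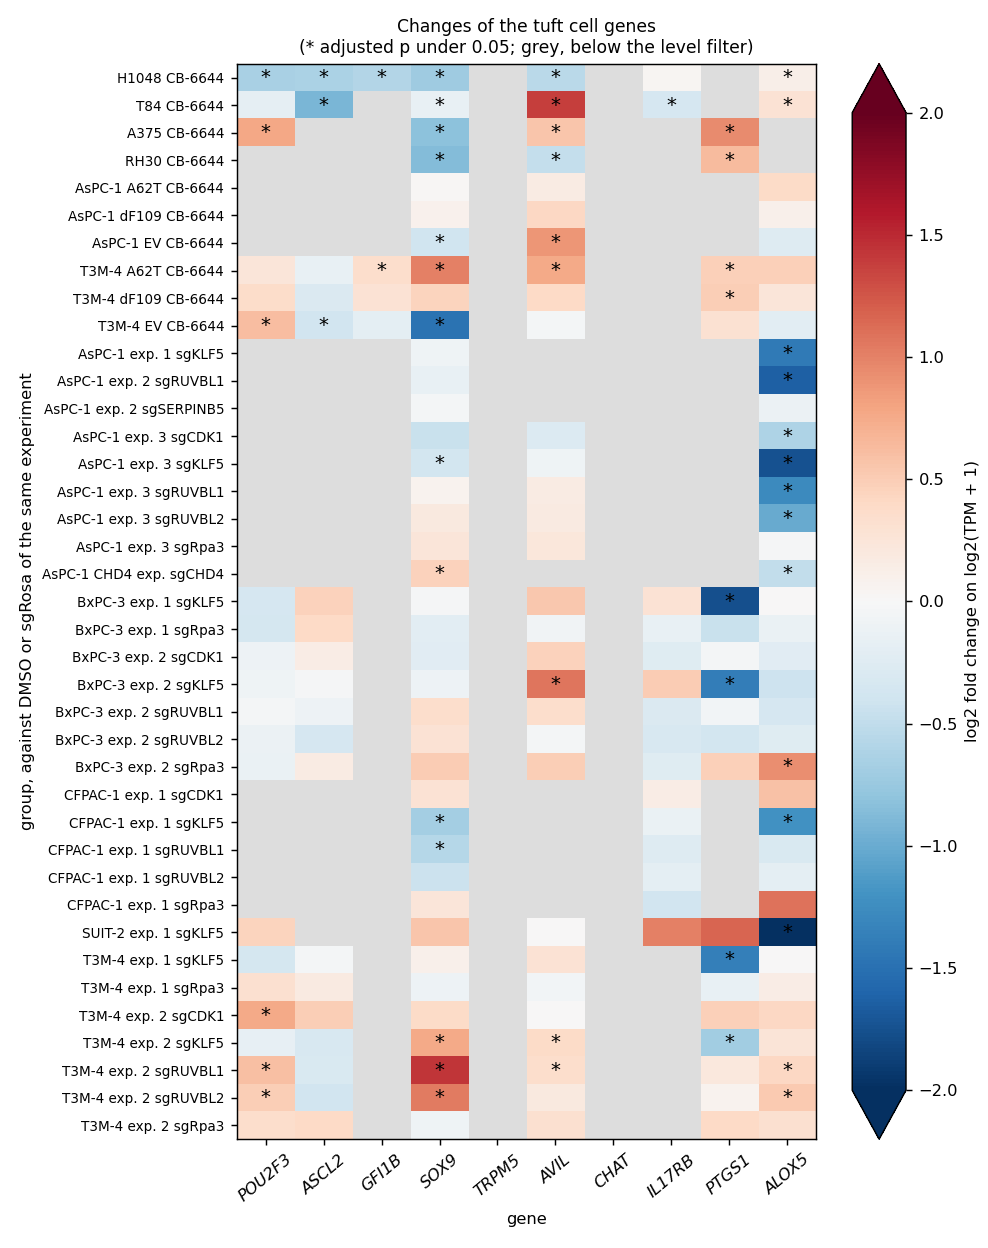
Log2 fold change of the tuft cell genes on the log2(TPM + 1) scale for CB-6644 or knockout groups against their DMSO or sgRosa controls. In H1048 the changes of POU2F3, SOX9, GFI1B, ASCL2 and AVIL lie between -0.71 and -0.53, and the largest fall among the knockouts is that of ALOX5 in SUIT-2 sgKLF5, at -2.76.

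In the engineered PDAC lines, CB-6644 was compared with the 3 DMSO libraries of a line as 1 group, with 1 from each construct. In AsPC-1, 12.7% of all genes passed the threshold in A62T cells, 33.4% in dF109 cells and 64.4% in EV cells. In A62T and in dF109 cells, 0 of the 3 members tested passed it in limma, and 1 in each had an unadjusted p under 0.05. In EV cells, SOX9 measured 12.9, 13.2 and 16.0 TPM, against 21.0, 19.3 and 16.3 TPM in EV, A62T and dF109 DMSO cells (-0.40, adjusted p = 0.00875). AVIL, whose DMSO mean of 0.973 TPM was under the filter, measured 2.04, 2.22 and 3.87 TPM, against 1.27, 0.843 and 0.805 TPM (0.89, adjusted p = 0.000408). Neither comparison overlapped.

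In T3M-4, the DMSO libraries of the 3 constructs differed in SOX9 before any inhibitor was given. SOX9 measured 8.06 TPM in EV, 31.1 TPM in A62T and 18.6 TPM in dF109 cells under DMSO. Under CB-6644 it measured 8.27, 5.22 and 3.53 TPM in EV cells, 36.5, 34.3 and 34.1 TPM in A62T cells and 22.7, 24.3 and 23.3 TPM in dF109 cells. The order of the constructs was the same under both treatments. Against the pooled DMSO libraries, SOX9 fell in EV cells (-1.48, adjusted p = 0.0095) and rose in A62T cells (1.01, adjusted p = 0.0403). Against the DMSO library of the same construct, the differences were -0.50 (adjusted p = 0.217) and 0.16 (adjusted p = 0.769), where a lone DMSO library is assumed to vary like the other groups. The A62T value was 0.52 (adjusted p = 0.137) without the EV DMSO library. In these comparisons, 50% of all genes passed the threshold for A62T, 37.6% for dF109 and 34.3% for EV cells.

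**Figure D4:**
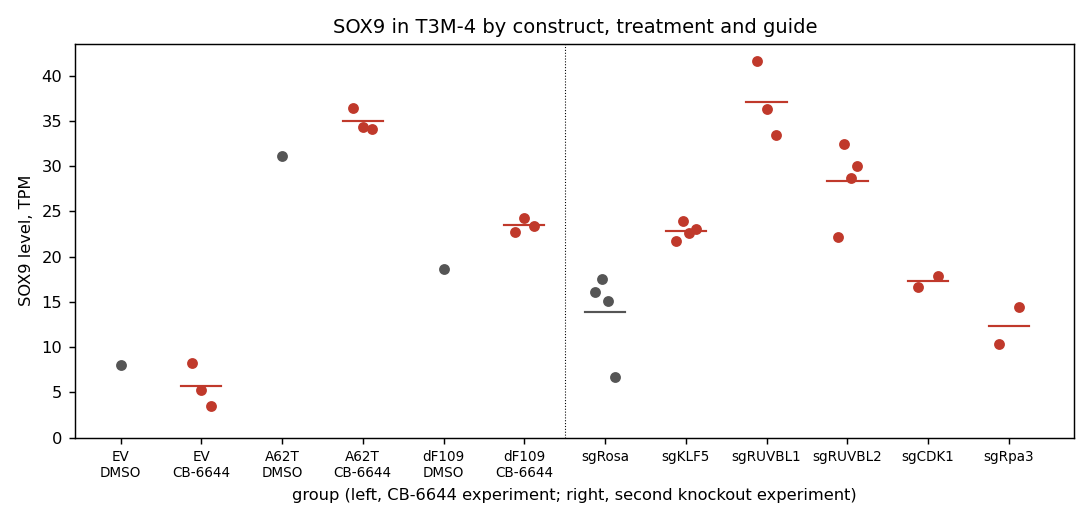
SOX9 in TPM in T3M-4 libraries. In the construct experiment, libraries are shown by construct and by treatment, with 1 DMSO and 3 CB-6644 libraries per construct. The constructs separate already under DMSO (8.06 TPM in EV, 18.6 TPM in dF109 and 31.1 TPM in A62T), and keep that order under CB-6644.

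The other 6 member calls in T3M-4 were smaller. POU2F3 rose in EV cells to 4.11, 3.52 and 3.33 TPM, from 2.94, 1.499 and 1.84 TPM in EV, A62T and dF109 DMSO cells (0.61, adjusted p = 0.012), and by 0.24 against its own DMSO library (adjusted p = 0.252). ASCL2 fell in EV cells (-0.38, adjusted p = 0.0272), a call lost without EV CB-6644 replicate 2 (adjusted p = 0.0862) or the EV DMSO library (adjusted p = 0.0634). The call was kept in 14 of 17 alternatives, and against the EV DMSO library alone ASCL2 was -0.59. AVIL (0.76) and PTGS1 (0.47) rose in A62T cells and PTGS1 (0.49) in dF109 cells, where the median of all genes was 0.33 and 0.29. Against the A62T DMSO library, AVIL was 0.37 (adjusted p = 0.436) and PTGS1 0.45 (adjusted p = 0.234), and without the dF109 DMSO library the AVIL call was lost as well (adjusted p = 0.0544). GFI1B averaged 1.44 TPM in A62T CB-6644 cells and 0.899 TPM in DMSO, and passed the filter only through the CB-6644 libraries of the variants. Its value of 0.36 was lost in 9 of 17 alternatives, rescaling (0.16, adjusted p = 0.322) and the same-construct DMSO library (0.23, adjusted p = 0.476) among them. Rescaling left PTGS1 at 0.13 (adjusted p = 0.398) in A62T and 0.18 (adjusted p = 0.273) in dF109 cells. Against the dF109 DMSO library, PTGS1 in dF109 cells was 0.58.

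Under CB-6644, resistant cells were set against EV cells, where 51.1% and 47.2% of all genes differed in AsPC-1 for A62T and dF109, and 50.6% and 34.6% in T3M-4. In AsPC-1, ALOX5 measured 59.9, 51.9 and 53.6 TPM in A62T cells and 32.9, 33.8 and 38.2 TPM in EV cells (0.64, adjusted p = 0.000972), with no overlap. The single DMSO libraries of these constructs held 51.2 and 38.0 TPM, so the constructs stood in the same order without the inhibitor, and against those libraries ALOX5 was 0.10 (adjusted p = 0.687) in A62T and -0.12 (adjusted p = 0.502) in EV cells. SOX9 was higher in both variants (0.43, adjusted p = 0.00799 and 0.49, adjusted p = 0.00388). AVIL was lower in both (-0.72, adjusted p = 0.0025 and -0.47, adjusted p = 0.0272), and its dF109 value was -0.26 (adjusted p = 0.101) without EV CB-6644 replicate 3. The EV DMSO library already held more AVIL, 1.27 TPM, than those of A62T and dF109, at 0.843 and 0.805 TPM. In T3M-4, SOX9 was higher by 2.49 in A62T cells (adjusted p = 0.000622) and by 1.93 in dF109 cells (adjusted p = 0.0051), the same order as in the DMSO libraries. AVIL was higher in T3M-4 A62T cells (0.80, adjusted p = 0.00868), opposite to AsPC-1. ALOX5 was higher there as well (0.69, adjusted p = 0.0197), a call lost in 3 of 19 alternatives. The A62T and EV DMSO libraries of T3M-4 held 2.04 and 0.997 TPM of AVIL and 6.63 and 3.70 TPM of ALOX5. GFI1B averaged 1.44 and 1.32 TPM in the variants and 0.666 TPM in EV cells, and its filter was passed only through the variants, so no direction is read from it.

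Before the knockouts were read, the targeted mRNAs were checked. The ratio to sgRosa was 0.271 to 0.448 for RUVBL1 in 5 groups, 0.291 to 0.43 for RUVBL2 in 4 groups and 0.391 for SERPINB5. KLF5 mRNA stood at 0.753 to 1.70 of sgRosa over 8 groups and CHD4 mRNA at 1.24. The guides cut DNA, so mRNA levels do not show the loss of KLF5 or CHD4 protein. Some libraries stood apart from their group across all genes, namely T3M-4 sgKLF5 replicate 2 of the first experiment, SUIT-2 sgRosa replicate 1, SUIT-2 sgKLF5 replicate 4 and AsPC-1 sgRUVBL2 replicate 2 of the third experiment. T3M-4 sgRosa replicate 4 of the second experiment did so to a lesser degree (median r with its group 0.9885, against 0.9965 to 0.9971). It held the lowest SOX9, ALOX5 and PTGS1 of that group.

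Over the 29 knockout comparisons, 135 of 290 member values were tested, and 13 rose and 16 fell. ALOX5 and SOX9 were tested in all 29, and 12 of the 29 calls were of ALOX5. TRPM5, CHAT and GFI1B were under the filter in all 29, and ASCL2 and IL17RB were tested in 14 and 13 comparisons with 0 calls by limma, while 2 and 3 of those had an unadjusted p under 0.05. The share of all genes past the threshold differed widely. In AsPC-1 it was 25.9% for sgKLF5 in the first experiment, 55.8% for sgRUVBL1 and 0.0343% for sgSERPINB5 in the second, and 27.8% for sgKLF5, 51.9% for sgRUVBL1, 43.2% for sgRUVBL2, 16.7% for sgCDK1 and 0.654% for sgRpa3 in the third. It was 50% for sgCHD4.

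ALOX5 fell in the classical PDAC lines after loss of KLF5. In the first AsPC-1 experiment it measured 41.3 and 34.1 TPM in sgRosa cells and, over 6 sgKLF5 libraries, from 10.98 to 17.8 TPM (-1.42, SE 0.17, adjusted p = 0.000167). In the third it measured 61.4, 63.8, 56.1 and 52.4 TPM in sgRosa cells and 12.7, 16.9, 21.8 and 16.4 TPM in sgKLF5 cells (-1.75, SE 0.14, adjusted p = 2.29e-08). No sgKLF5 library reached the lowest sgRosa library in either. In SUIT-2, where 3.94% of all genes passed the threshold, ALOX5 measured 12.3, 24.7, 42.6 and 45.1 TPM in sgRosa cells and 2.55, 1.89, 4.58 and 4.74 TPM in sgKLF5 cells (-2.76, SE 0.42, adjusted p = 0.00757). The sgRosa libraries spread widely, and SUIT-2 sgRosa replicate 1 was the lowest. Without it the fall was 3.13 (log2 fold change -3.13).

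In CFPAC-1, where 16.2% of genes passed the threshold for sgKLF5, the ALOX5 groups overlapped. ALOX5 measured 7.602, 1.29, 8.62 and 6.12 TPM in sgRosa cells and 1.72, 1.59 and 1.55 TPM in sgKLF5 cells (-1.21, adjusted p = 0.027). The overlap came from sgRosa replicate 2 alone, at 1.29 TPM, and without it the value was -1.68. Leaving out sgRosa replicate 1 or 3, or any 1 of the sgKLF5 libraries, ended that call (adjusted p from 0.0761 to 0.0912). The call was kept in 16 of 23 alternatives. In the basal-like lines, 0 of the 4 sgKLF5 comparisons moved ALOX5 past the threshold in limma, 0 of them had an unadjusted p under 0.05, and the values ran from -0.42 to 0.26. The difference in ALOX5 response between classical and basal-like lines was not tested.

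ALOX5 also fell in AsPC-1 after loss of the RUVBL ATPases. In the second experiment it measured 29.5, 31.2, 36.3 and 34.5 TPM in sgRosa cells and 9.74, 9.602, 10.3 and 9.65 TPM in sgRUVBL1 cells (-1.64, SE 0.12, adjusted p = 2.8e-08). In the third, it measured 20.5, 29.9, 24.4 and 20.7 TPM in sgRUVBL1 cells (-1.27, adjusted p = 1.54e-06) and 30.6, 22.7, 32.2 and 29.2 TPM in sgRUVBL2 cells (-1.01, adjusted p = 3.33e-05). All of these libraries lay below all 4 sgRosa libraries. The lethality control sgCDK1 gave 33.7 and 42.0 TPM (-0.62, adjusted p = 0.021), a call lost without sgCDK1 replicate 1 (adjusted p = 0.289) or sgRosa replicate 2 (adjusted p = 0.0518). In sgCHD4 cells, ALOX5 measured 32.6, 32.3, 38.9 and 32.2 TPM, against 45.3, 49.7, 51.3 and 46.7 TPM in sgRosa cells (-0.49, adjusted p = 0.000152).

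All 3 ALOX5 calls in the basal-like lines T3M-4 and BxPC-3 were rises. The shares past the threshold in T3M-4 were 5.72% for sgKLF5 and 0% for sgRpa3 in the first experiment, the latter with 189 genes at an unadjusted p under 0.05 in limma. In the second they were 34.6% for sgKLF5, 60.5% for sgRUVBL1, 54.5% for sgRUVBL2, 16.8% for sgCDK1 and 24.6% for sgRpa3. ALOX5 measured 14.1, 15.3, 19.2 and 10.0 TPM in T3M-4 sgRosa cells and 19.8, 20.6, 20.4 and 23.2 TPM in sgRUVBL2 cells (0.52, adjusted p = 0.00408). In sgRUVBL1 cells it rose by 0.42 (adjusted p = 0.0222), which was lost under rescaling (0.14, adjusted p = 0.302) and without sgRosa replicate 4 (0.26, adjusted p = 0.0633). In BxPC-3 sgRpa3 cells it rose by 0.94 (adjusted p = 0.0286), a call that either sgRpa3 library, left out, ended (adjusted p = 0.139 and 0.171), as did leaving out sgRosa replicate 1 or 2.

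PTGS1, the other eicosanoid enzyme, fell in the basal-like lines after loss of KLF5. In BxPC-3 the shares past the threshold were 16.2% for sgKLF5 and 0.307% for sgRpa3 in the first experiment, and 34.6% for sgKLF5, 16% for sgRUVBL1, 9.76% for sgRUVBL2, 5.82% for sgCDK1 and 20.8% for sgRpa3 in the second. PTGS1 measured 29.6 and 27.3 TPM in sgRosa cells and 8.44, 7.82, 6.81 and 7.88 TPM in sgKLF5 cells of the first experiment (-1.75, SE 0.13, adjusted p = 1.33e-05). In the second it measured 30.2, 27.4, 35.7 and 37.5 TPM in sgRosa cells and 11.8, 10.9, 12.7 and 11.8 TPM in sgKLF5 cells (-1.39, SE 0.15, adjusted p = 1.65e-06). The groups were well apart in both. The PTGS1 window printed above, with its KLF-type box, is the second of its annotated starts, and the first window holds no such box. GGGTGGG was in 19.6% of all promoter windows, and a part of this box in the PTGS1 falls was not tested.

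In T3M-4 the PTGS1 fall was less firm. In the first experiment PTGS1 measured 6.18 and 6.47 TPM in sgRosa cells and 1.48, 1.12, 2.47 and 2.55 TPM in sgKLF5 cells (-1.37, adjusted p = 0.0338), with no overlap. That call was lost in 10 of 13 alternatives, with adjusted p up to 0.311, yet without the outlying sgKLF5 replicate 2 it was -1.23 with adjusted p = 0.00324. In the second, PTGS1 measured 7.73, 8.35, 9.45 and 4.21 TPM in sgRosa cells and 3.67, 4.09, 4.25 and 4.28 TPM in sgKLF5 cells (-0.69, adjusted p = 0.00772), and sgRosa replicate 4 lay within the sgKLF5 range. In SUIT-2, PTGS1 measured 5.42, 16.9, 13.5 and 11.7 TPM in sgRosa cells and 31.6, 18.7, 27.2 and 28.8 TPM in sgKLF5 cells, with no overlap but not past the threshold (1.17, adjusted p = 0.09). Without SUIT-2 sgRosa replicate 1 it was 0.87 (adjusted p = 0.0364). After loss of RUVBL1 or RUVBL2, PTGS1 did not pass the threshold in limma in either basal-like line. Its values for sgRUVBL1 and sgRUVBL2 were -0.06 and -0.37 in BxPC-3 and 0.21 and 0.07 in T3M-4.

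**Figure D5:**
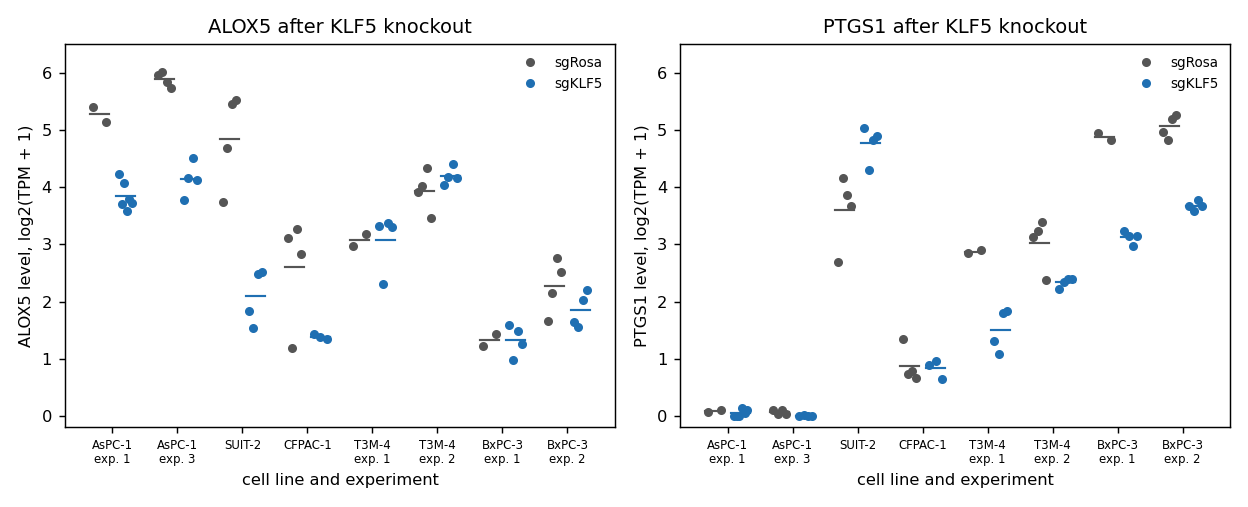
Level of ALOX5 and PTGS1 in each sgRosa and sgKLF5 library, by line and experiment, on a log scale. ALOX5 is lower in every sgKLF5 library of AsPC-1 and SUIT-2, and PTGS1 in every sgKLF5 library of BxPC-3, while PTGS1 is higher in the sgKLF5 libraries of SUIT-2.

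SOX9 rose in the second T3M-4 experiment and fell in CFPAC-1. In the first T3M-4 experiment it measured 13.2 and 12.9 TPM in sgRosa cells and 17.2, 5.30, 20.7 and 19.9 TPM in sgKLF5 cells, which overlapped (0.10, adjusted p = 0.908). In the second T3M-4 experiment it measured 16.0, 17.5, 15.1 and 6.72 TPM in sgRosa cells, against 33.5, 41.6 and 36.3 TPM in sgRUVBL1 cells (1.43, SE 0.22, adjusted p = 3.21e-05). It measured 22.2, 32.4, 28.7 and 30.1 TPM in sgRUVBL2 cells (1.05, SE 0.20, adjusted p = 0.000344) and 21.7, 23.9, 22.6 and 23.1 TPM in sgKLF5 cells (0.76, SE 0.20, adjusted p = 0.00731). All of these libraries exceeded all 4 sgRosa libraries, and without sgRosa replicate 4 the sgKLF5 value was 0.47. In CFPAC-1, where 43.8% of genes passed the threshold for sgRUVBL1, 12.1% for sgRUVBL2, 11.6% for sgRpa3 and 0% for sgCDK1, SOX9 measured 116, 80.4, 101 and 64.1 TPM in sgRosa cells. The sgCDK1 comparison had 1477 genes at an unadjusted p under 0.05 in limma. SOX9 measured 56.0, 51.8 and 56.8 TPM in sgKLF5 cells (-0.67, adjusted p = 0.00803), with no overlap, and 58.2, 53.8, 70.3 and 55.5 TPM in sgRUVBL1 cells (-0.57, adjusted p = 0.00327), which overlapped.

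In AsPC-1, SOX9 rose in sgCHD4 cells to 40.4, 35.3, 44.3 and 43.2 TPM, from 29.5, 29.0, 29.9 and 29.1 TPM (0.46, adjusted p = 0.000264). It fell in sgKLF5 cells of the third experiment (-0.36, adjusted p = 0.0494), but the groups overlapped and the call was lost in 20 of 26 alternatives.

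POU2F3 and AVIL remained low in the PDAC lines even where they rose. In the second T3M-4 experiment, POU2F3 measured 1.296, 1.86, 1.67 and 1.95 TPM in sgRosa cells. It measured 3.45, 3.03 and 2.72 TPM in sgRUVBL1 cells (0.60, adjusted p = 0.00351), from 2.09 to 3.29 TPM in sgRUVBL2 cells (0.48, adjusted p = 0.00923) and 3.55 and 3.54 TPM in sgCDK1 cells (0.76, adjusted p = 0.00815). The sgRUVBL2 call was lost under rescaling (0.34, adjusted p = 0.0563), and the sgCDK1 call without either of its libraries (adjusted p = 0.0642 and 0.0671). These levels are far below the 476 TPM of H1048. In AsPC-1 sgCHD4 cells POU2F3 was under the filter, with 1.97, 1.69, 1.297 and 1.35 TPM against 0.0639, 0.189, 0.378 and 0.319 TPM in sgRosa cells, and was not tested. In the second BxPC-3 experiment AVIL rose from 1.95, 3.101, 1.97 and 1.39 TPM in sgRosa cells to 5.28, 5.47, 5.75 and 4.99 TPM in sgKLF5 cells (1.06, adjusted p = 0.000983), with no overlap. In the first it measured 3.19 and 2.95 TPM in sgRosa cells and 6.88, 5.501, 3.29 and 4.63 TPM in sgKLF5 cells, with no overlap but not past the threshold (0.55, adjusted p = 0.15). In T3M-4 it rose by 0.38 in sgKLF5 cells (adjusted p = 0.0261) and by 0.35 in sgRUVBL1 cells (adjusted p = 0.0378), and leaving out any 1 of 5 and 6 libraries ended those calls, with adjusted p up to 0.0907 without sgKLF5 replicate 3 and 0.109 without sgRUVBL1 replicate 2.

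The member values that did not pass the threshold in the knockouts were as follows in range. For SOX9, 22 comparisons ran from -0.45 to 0.55, and for ALOX5, 17 ran from -0.42 to 1.08. For AVIL, 17 ran from -0.28 to 0.55, and for POU2F3, 12 ran from -0.35 to 0.45. The stem cell factor ASCL2 ran from -0.38 to 0.49, IL17RB from -0.38 to 1.01 and PTGS1 in 11 comparisons from -0.44 to 1.17. The upper ends reach the size of several calls above, so these values do not show that the members stayed level.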

How the data were processed

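RNA-seq libraries of poly-A RNA had been quantified with kallisto against hg38 and summed to genes by the authors, who removed transcripts of low abundance at a limit not given in the sources used here. The deposited values are TPM, each library summing to 1e+06. Read depth is therefore unknown; 11292 to 14024 genes reached 1 TPM per library. The authors left out 1 RUVBL1-knockout T3M-4 sample for low library concentration. Groups came from the labels, which give every library the same batch. Experiment numbers came from sample titles.

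Per line and experiment, log2(TPM + 1) was fitted with limma 3.58.1 (R 4.3.3; lmFit, eBayes with trend, two-sided) over genes that averaged 1 TPM or more in the fitted libraries. P-values were adjusted by Benjamini-Hochberg over all genes tested, at a threshold of 0.05. Fold changes on this scale understate changes of low genes. The procedure was tested on simulated data. Same-numbered samples did not deviate together in every pair of any experiment, so numbers were not used to pair samples. Promoters were RefSeq windows on GRCh38.p14 and gene positions GENCODE v44. The genes named beyond the members were those with the largest changes of a list, up to 8 each way past the threshold with no overlap of the H1048 groups, the 8 most like POU2F3, and the POU2 family. Members and lists were chosen with earlier results of these data known. Alternatives were another pseudocount, filter, scaling, sample set, block and each library left out.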

Additional observations from a re-analysis of the deposited data

Results flagged for a closer look

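Among 76 groups of 4 to 10 libraries in which a member averaged at least 5 TPM, 4 held a library far from the others, where chance gives about 1 in 20 groups. In AsPC-1 sgCHD4 cells, ALOX5 was 38.9 TPM in replicate 3 and 32.2 to 32.6 TPM in the others. In AsPC-1 sgRUVBL1 cells of the second experiment, SOX9 was 26.3 TPM in replicate 4 and 23.2 to 23.5 TPM in the others. In T3M-4 sgKLF5 cells of the first experiment, replicate 2 held 7.65 TPM of ASCL2 against 4.41 to 4.78 TPM, and 3.93 TPM of ALOX5 against 8.89 to 9.39 TPM. That library also stood apart across all genes.

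The response to CB-6644 differed between H1048 and T84 for 5 members tested in both lines, by a limma interaction term on the log2(TPM + 1) scale, given as H1048 minus T84. The difference was -1.92 for AVIL (adjusted p = 1.21e-13), -0.56 for SOX9 (adjusted p = 1.35e-07) and -0.48 for POU2F3 (adjusted p = 0.000578). It was 0.28 for ASCL2 (adjusted p = 0.0206) and 0.38 for IL17RB (adjusted p = 0.0402). With a pseudocount of 0.1 TPM the calls of POU2F3 (-0.34, adjusted p = 0.267), ASCL2 (0.22, adjusted p = 0.366) and IL17RB (0.38, adjusted p = 0.687) were lost. The IL17RB call was lost in 9 of 11 alternatives and the ASCL2 call in 3 of 11. Against A375 the difference was -1.43 for POU2F3 (adjusted p = 3.05e-12) and -1.09 for AVIL (adjusted p = 6.07e-09). Both genes were under 1 TPM in A375 under DMSO and passed the filter there only through the CB-6644 libraries.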

How the results depend on the processing

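Depth is unknown in TPM values, and members near 1 TPM are read with little precision. The single member values tallied were those past the threshold and, in H1048 under CB-6644, every member tested. Of these 113, 81 kept their direction and their side of the threshold under every alternative tried. Other values not past the threshold were left out, so calls gained among them are not counted. Over 1628 alternatives, 1473 kept both, 152 kept the direction and lost the call, and 3 reversed, all under median-of-ratios scaling, whose cause was not tested: ALOX5 in H1048 (-0.10), IL17RB in H1048 (-0.17) and IL17RB in H1048 against T84 under DMSO (-0.14). A filter of 5 TPM left 5 of 12 calls in T84, A375 and RH30, 5 of 10 for CB-6644 in AsPC-1 and T3M-4 and 7 of 12 for resistance variants, since fewer genes were tested. For CB-6644 in AsPC-1 and T3M-4, fitting only the groups compared left 5 calls. Against the single DMSO library of the same construct, some calls were lost and that of POU2F3 in T3M-4 dF109 cells (0.46) was gained.

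Leaving out 1 library at a time gave 5 to 5 falls in H1048, 11 to 13 calls in T84, A375 and RH30, 13 to 15 for the line interaction, 23 to 25 between DMSO lines, 10 to 13 for the variants and 27 to 34 for the knockouts. For CB-6644 in AsPC-1 and T3M-4 the range was 5 to 14, with 5 calls without the T3M-4 dF109 DMSO library.

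The replicate numbers were also fitted as a block, although same-numbered libraries did not pair. With the replicate block there were 5 falls in H1048, 12 calls in T84, A375 and RH30, 14 for the interaction, 13 for the variants and 29 for the knockouts. In SUIT-2 the correlations of same-numbered deviations had a median of -0.288.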
